A study of Arabidopsis thaliana with 3 samples.

Results

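The 26S proteasome is the protease that degrades proteins marked with ubiquitin, and its subunit genes were examined for peaks of BDH1-FLAG, a tagged form of BDH1. BDH1 is a BCL-DOMAIN HOMOLOG protein of Arabidopsis thaliana, a family named in the series title together with SWI/SNF, a complex that moves nucleosomes. Members were protein-coding genes with a symbol or synonym of the PAA to PAG, PBA to PBG, RPN or RPT series, and 60 of 27444 protein-coding genes matched. The name rule went beyond the proteasome. The gene table described 39 of the 60 as proteasome subunits or regulatory particle genes, and these are called the subunit genes here. Genes of subunits that carry no such name in the table were not members. The other 21 encode different proteins with the same symbols and are given apart.

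Chromatin immunoprecipitation with an antibody against the FLAG tag, followed by sequencing, had been made from inflorescences of soil-grown plants kept under a long-day light regime. The series holds 3 samples. A peak list was at hand for each of 2 samples of genotype bdh1-1 BDH1-FLAG, that is, plants of the bdh1-1 mutant background carrying the tagged BDH1 transgene, and these were taken as 2 replicates. The promoter of the transgene and the number of independent lines are not given in the sources used here. The third sample, wild type without a tag, was not analysed here, so no comparison between genotypes was made. Signal at the subunit genes in plants without the tag was not tested. The labels do not say whether the replicates came from separate plants, so the spread between them may be technical. The lists held 16653 peaks in replicate 1 and 16413 in replicate 2, and the read depth behind them is unknown.

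The proteasome consists of a cylindrical core and caps at its ends. The 20S core is built from rings of alpha subunits, which control entry, and rings of beta subunits, some of which cut the protein chain. The 19S regulatory particle caps the core. It holds a ring of RPT ATPases that unfold substrates and feed them into the core, and RPN subunits that bind and remove ubiquitin and hold the lid together. Arabidopsis encodes many of these subunits in pairs of genes.

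Nearly all subunit genes carried a BDH1-FLAG peak. A gene was counted when an interval of the authors overlapped it by at least 1 bp in both lists, and 37 of the 39 subunit genes met this rule (94.9%), against 45.4% of all protein-coding genes. In replicate 2 all 39 subunit genes had a peak, where 49.8% of protein-coding genes did, and in replicate 1 there were 37, where 48.9% did. The 2 genes short of the rule, PBE1 and RPN1B, had a peak in replicate 2 alone. All counts are descriptions with no test. The share in the whole gene table is the background to each of them. Longer genes carried peaks more often, and so did genes with a symbol. Of the 20715 protein-coding genes within the length range of the subunit genes, 1185 to 5904 bp, 52.4% had a peak in both lists. Among the 10374 protein-coding genes with a symbol the share was 54.1%, and among the 17070 named by locus tag only it was 40.2%. When all protein-coding genes were ordered by length into 10 equal groups, the group share was at most 62.4%. The subunit genes fell into 7 of these groups, and in 5 of them every subunit gene had a peak.

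**Figure D1:**
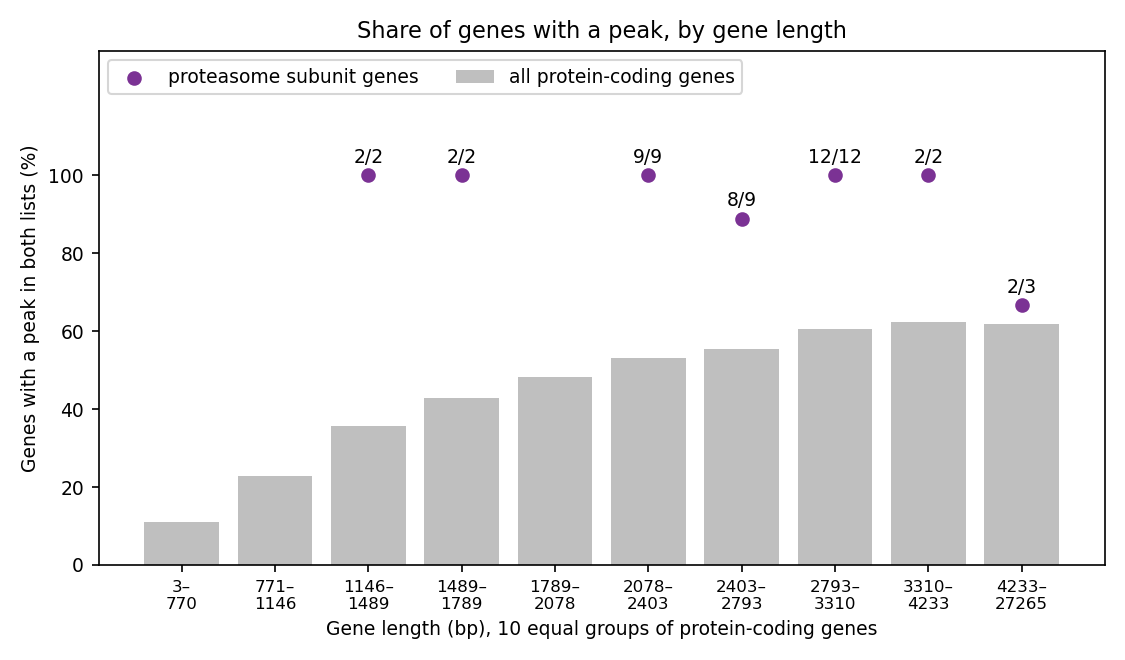
Percentage of genes with a peak in both BDH1-FLAG lists (vertical axis) in 10 equal groups of protein-coding genes by length in bp (horizontal axis). Bars are all protein-coding genes and points are the subunit genes of the group, with their counts written above. The points lie above the bars in all 7 groups that hold subunit genes, with 2 of 3 genes against 61.9% in the longest group.

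Under this rule the count was above the background, 45.4% of all protein-coding genes, in all 4 classes of subunits. Among genes with a matching name, a peak in both lists lay at 11 of 11 for 20S alpha subunits and 9 of 10 for 20S beta subunits. It lay at 8 of 8 for 19S ATPases and 9 of 10 for other 19S subunits. Stricter thresholds on the −log10 q of the peaks, given by the authors, brought the core genes closer to the background. At 5 or more, 7 of 11 alpha (63.6%) and 4 of 10 beta subunit genes (40.0%) kept a peak in both lists. Of the 19S genes, 8 of 8 ATPase and 7 of 10 other subunit genes kept one, 83.3% of 18 genes. The share of all protein-coding genes was 30.2%. At 10 or more, 0 of 11 alpha and 1 of 10 beta subunit genes did, 4.76% of the 21 core genes. With 9.12% of all protein-coding genes as background, these counts were too small to place the core genes above or below it. Of the 24 genes matched from a list of proteins that work with the proteasome, 20 had a peak in both lists (83.3%). Of the 21 genes of other proteins, 13 had one (61.9%). Of all 60 members, 50 had one (83.3%). The background to these counts is again 45.4%. In the longest of the 10 length groups it was 61.9% and in the next 62.4%, and most of the 21 genes fell in these groups.

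The peaks were of ordinary height for peaks at genes. Each peak has a fold enrichment, a linear ratio given by the authors, and its percentile within its own list was used to place it, with 100 as the highest. Where several intervals overlapped a gene, the one with the highest fold enrichment was taken. Over the 37 subunit genes the median fold enrichment was 2.41 in replicate 1 and 2.40 in replicate 2, and over all 12466 protein-coding genes with a peak in both lists it was 2.43 and 2.41. The median percentile of the subunit genes was 61.9 in replicate 1 and 63.4 in replicate 2, a mean of 62.7 ± 1.07 (SD, n = 2), and over all those protein-coding genes it was 63.6 and 64.1. The median height of the subunit genes thus lay beside that of other genes with a peak. Asking for an overlap of at least 100 bp left the count at 37 of 39, against 44.8% of protein-coding genes. With the summit required inside the gene it was 35 of 39 (89.7%), against 42.0%. PBF1 and RPN12a were the genes lost. With only peaks of a −log10 q of at least 5, 26 of 39 subunit genes kept a peak in both lists (66.7%), against 30.2% of protein-coding genes. At 10 or more, 6 did (15.4%), against 9.12%. Those 6 genes were PBF1, RPT1A, RPT2a, RPT3, RPN10 and RPN12a.

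**Figure D2:**
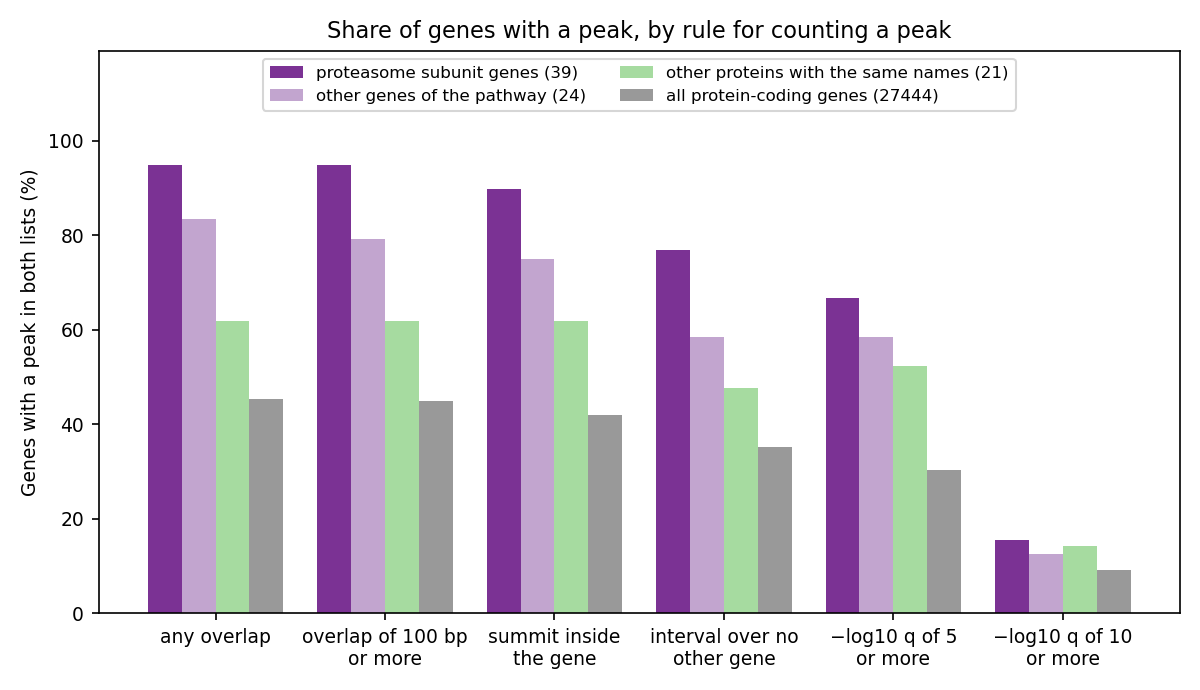
Percentage of genes with a peak in both lists (vertical axis) under 6 rules for counting a peak (horizontal axis), for the 39 subunit genes, 24 other genes of the pathway, 21 genes of other proteins with the same names and all 27444 protein-coding genes. The subunit genes were at 94.9% against 45.4% under the main rule and at 15.4% against 9.12% when a −log10 q of 10 was required.

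Among the 4 classes, the genes of the 19S ATPases had the highest peaks. The RPT proteins form the hexameric ring that pulls substrates into the core. Their fold enrichment ran from 2.19 to 3.35 in replicate 1, with a median of 2.81, and from 2.31 to 3.38 in replicate 2, with a median of 3.09. Their percentile, averaged over both lists, had a median of 87.5 over the 8 genes. In both lists 7 of the 8 lay above the middle of the list and 4 of the 8 lay above percentile 75. Of all protein-coding genes with a peak in both lists, 52.5% and 24.0% did so. The class was small, and its genes were not alike.

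RPT2a (AT4G29040) had the highest peak of all subunit genes by mean percentile. Its fold enrichment was 3.35 in replicate 1 and 3.29 in replicate 2, at percentiles 95.2 and 96.8. The interval spanned positions 14312208 to 14312912 of chromosome 4 in replicate 1 and 14312086 to 14312853 in replicate 2, in the coordinates of the authors' lists. Both summits lay at the same base, 146 bp inside the gene. In replicate 2 the interval also reached the neighbour AT4G29037. RPT3 (AT5G58290) had a fold enrichment of 3.04 and 3.28, its interval spanning positions 23569045 to 23569746 of chromosome 5 in replicate 1 and 23569051 to 23569743 in replicate 2. RPT1A (AT1G53750) had 3.22 and 2.90, at positions 20067816 to 20068461 and 20067811 to 20068464 of chromosome 1. RPT5B (AT1G09100) had 2.77 and 3.31, at positions 2939010 to 2939590 and 2938922 to 2939572 of chromosome 1. The orders of RPT3, RPT1A and RPT5B differed between the lists, so these 3 could not be ranked among themselves. The interval at RPT5B also overlapped AT1G09110 and AT1G09130 in both lists.

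The other ATPase genes had lower or less repeatable peaks. RPT2b, the second copy of RPT2, had a fold enrichment of 2.60 in replicate 1 and 3.38 in replicate 2, the highest value of any subunit gene in that list. RPT4A had 2.85 and 2.31, and RPT6A had 2.27 and 2.72. Each of these 3 lay high in one list and lower in the other, as RPT4A did at percentiles 84.4 and 56.8. RPT5A was lowest in the ring by mean percentile, with 2.19 and 2.56, below both values of RPT2a, RPT3, RPT1A and RPT5B.

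**Figure D3:**
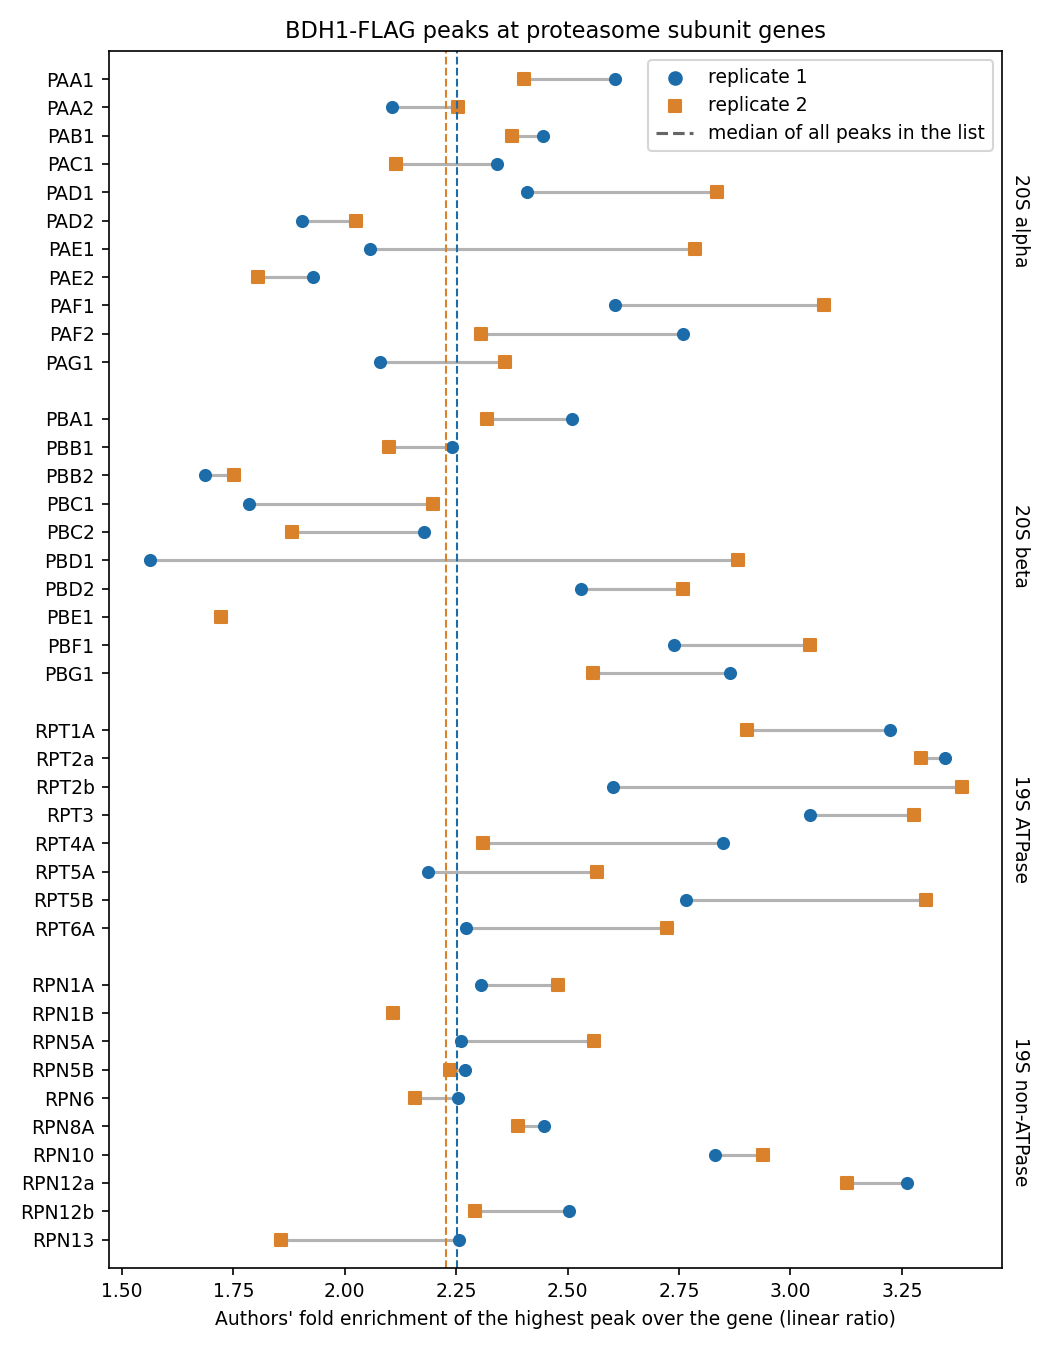
Authors' fold enrichment (linear ratio, horizontal axis) of the highest peak over each of the 39 subunit genes (vertical axis, grouped by class) in replicate 1 (circles) and replicate 2 (squares), joined by a line where both lists had a peak. Dashed lines mark the median of all peaks in each list, 2.25 in replicate 1 and 2.23 in replicate 2. The RPT genes reach furthest to the right, PBB2 lies left of both lines in both lists, and PBE1 and RPN1B have a square alone.

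The genes of the other 19S subunits lay mostly at or above the middle of the lists, and 2 stood out as high. Of the 9 with a peak in both lists, 7 lay above the middle of both (77.8%) and 0 below it in both. Of all protein-coding genes with a peak in both lists, 52.5% and 21.1% did so. RPN12a (AT1G64520) encodes a lid subunit. It had a fold enrichment of 3.26 in replicate 1 and 3.13 in replicate 2, at percentiles 94.1 and 94.4. By mean percentile it was second among the subunit genes, and in replicate 2 alone RPT2b, RPT5B, RPT2a and RPT3 were higher. Its interval spanned positions 23955706 to 23956763 of chromosome 1 in replicate 1 and 23955581 to 23956945 in replicate 2. The summit did not lie in RPN12a. It was 197 bp outside the gene in replicate 1 and 153 bp outside in replicate 2, and the interval also overlapped the neighbour AT1G64510, so the peak cannot be given to RPN12a alone. RPN10 (AT4G38630), which binds ubiquitin chains, had 2.83 and 2.94. Its interval in replicate 2 also reached AT4G38640. RPN10 and RPN12b were the subunit genes with 2 intervals in both lists. At RPN10 the lower interval lay across the opposite end of the gene, where the fold enrichment was 2.14 in replicate 1 and 2.16 in replicate 2. Those intervals covered positions 18056740 to 18057123 and 18056735 to 18057080 of chromosome 4.

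The remaining genes of this class were lower. RPN1A, a large scaffold subunit of the base that docks shuttle proteins, had a fold enrichment of 2.31 and 2.48. RPN5A, a lid subunit listed under the symbol EMB2107, had 2.26 and 2.56, and its copy RPN5B had 2.27 and 2.24. RPN8A, the partner of the ubiquitin-removing lid subunit, had 2.45 and 2.39. These values lay close together. RPN6, a lid subunit listed as ATS9, had 2.25 and 2.16. RPN13, a further ubiquitin receptor, had 2.26 in replicate 1 and 1.86 in replicate 2, where it lay at percentile 15.0. RPN1B (AT4G28470) had no peak in replicate 1 and an interval at positions 14072080 to 14072458 of chromosome 4 in replicate 2. There the fold enrichment was 2.11, and the −log10 q was 5.24.

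All 11 genes matched by name to alpha subunits had a peak in both lists, and by mean percentile none was among the 8 highest subunit genes. Alpha subunits form the outer rings of the core. Their fold enrichment ran from 1.90 to 2.76 in replicate 1 and from 1.80 to 3.08 in replicate 2. PAF1 was highest by mean percentile, with 2.61 and 3.08. PAD1 had 2.41 and 2.83, PAA1 (AT5G35590) had 2.61 and 2.40, and PAF2 had 2.76 and 2.31. These 4 lay above the median of both lists, and the interval of PAF2 in replicate 2 also overlapped GAMMA CA2. PAB1 (AT1G16470) had 2.44 and 2.38, which was also above both, and its interval also overlapped the neighbour RDH2 in both lists. PAE1, PAC1, PAG1 and PAA2 (AT2G05840) lay above the median of only a single list, the widest split being PAE1 with 2.06 and 2.79. PAD2 (AT5G66140) and PAE2 were low in both lists. PAD2 had 1.90 and 2.03, with its interval at positions 26438422 to 26438709 and 26438409 to 26438757 of chromosome 5. PAE2 (AT3G14290) had 1.93 and 1.81, at positions 4764125 to 4764559 and 4764202 to 4764579 of chromosome 3.

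The genes of beta subunits had the lowest median and the widest spread. Their median percentile, averaged over both lists, was 44.7 over the 9 genes with a peak in both lists, and 4 of the 9 lay below the middle of both lists, against 21.1% of all protein-coding genes with a peak in both lists. Among the members, the beta subunits with proteolytic activity are PBA1, PBB1 and PBB2, and PBE1. PBA1 had a fold enrichment of 2.51 and 2.32. PBB1 had 2.24 and 2.10. PBB2 (AT5G40580) had the lowest peak of the subunit genes with one in both lists, at 1.69 in replicate 1 and 1.75 in replicate 2, and percentiles 3.17 and 7.33. The intervals of PBB2 covered positions 16250494 to 16250808 and 16250508 to 16250874 of chromosome 5. PBE1 (AT1G13060) had no peak in replicate 1. In replicate 2 its interval spanned positions 4452308 to 4452725 of chromosome 1. The fold enrichment there was 1.72, and the −log10 q was 2.93. The genes of these catalytic subunits were therefore in the middle or the lower part of the lists.

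Of the beta subunit genes without that activity, PBF1 and PBG1 were highest by mean percentile. The fold enrichment was 2.74 and 3.04 for PBF1 and 2.86 and 2.56 for PBG1. In replicate 2 alone, PBD1 and PBD2 were above PBG1. The peak of PBF1 moved between the lists. In replicate 1 the summit was inside PBF1 by 224 bp. In replicate 2 it was 277 bp outside, where the interval was wide enough to reach the neighbour ARP7. ARP7 encodes an actin-related protein that is itself a SWI/SNF subunit. PBD2 had 2.53 and 2.76, with an interval that also overlapped ATSUV3 in both lists. PBC1 had 1.79 and 2.20, and PBC2 had 2.18 and 1.88, below the median of both lists for each gene. PBD1 (AT3G22630) differed most between the replicates. Its fold enrichment was 1.56 in replicate 1, at percentile 0.721 with a −log10 q of 1.60, close to the lowest value of that list, 1.32. In replicate 2 it was 2.88, at percentile 88.6 with a −log10 q of 11.7.

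Of the 27 subunits represented, 12 had 2 gene copies among the members, and 11 of these had a peak in both lists at both copies. Copies without a matching name were not counted. With a −log10 q of at least 5 the count of pairs with a peak at both copies was 5, at 10 or more it was 0, and without intervals that reach another gene it was 6. The share of single protein-coding genes was 45.4% under the main rule, and 30.2%, 9.12% and 35.2% under these in turn. No share was worked out for pairs of other genes. The exception under the main rule was RPN1, where RPN1A had a peak in both lists and RPN1B in one. Among the 15 subunits with 1 matched gene, 14 had a peak, PBE1 being the exception. For 6 of the 11 pairs the same copy was higher in both lists: PAA1 over PAA2, PAD1 over PAD2, PAE1 over PAE2, PBB1 over PBB2, RPN12a over RPN12b and RPT5B over RPT5A. The intervals at RPN12a and RPT5B also overlapped other genes in both lists, and the summit at RPN12a lay outside the gene. The orders of these copies therefore cannot be given to the copies alone. For the other 5 pairs, PAF, PBC, PBD, RPN5 and RPT2, the order changed between the lists. An arbitrary order would repeat in 2 lists about as often as it changed. A lasting difference between copies is therefore not shown. The shorter copy RPN12b (AT5G42040), 1185 bp long, was covered over 68.6% of its length in replicate 1 and 88.3% in replicate 2. Each list had 2 intervals there, and the higher one in replicate 1 also overlapped ABIL4, with its summit 597 bp outside RPN12b. Reads were 50 bases long. How reads that match more than 1 copy were placed is not given in the sources used here, so values of near-identical copies are uncertain.

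The peaks lay at similar places along the genes. Of the 37 genes, 35 had the highest summit inside the gene in replicate 1 and 35 in replicate 2 (94.6% each). This was near the share among all protein-coding genes with a peak in both lists, 92.2% and 91.7%. Those summits lay a median of 224 bp from the nearest gene boundary in replicate 1, and their middle quartiles ran from 180 to 317 bp. For replicate 2 the median was 234 bp and the quartiles were 193 and 324 bp. The mean of the medians was 229 bp ± 7.07 (SD, n = 2). Over all protein-coding genes with a peak in both lists the medians were 267 and 269 bp. The summit lay inside the gene and within 500 bp of a boundary in 31 of 37 subunit genes in replicate 1 (83.8%) and 33 of 37 in replicate 2 (89.2%), against 80.9% and 80.0% of all those genes. The boundary nearest to the summit was the same in both lists for 37 of 37 subunit genes, and for 93.8% of all those genes. Whether that boundary is the start or the end of the gene could not be told, as the gene table gives no strand.

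**Figure D4:**
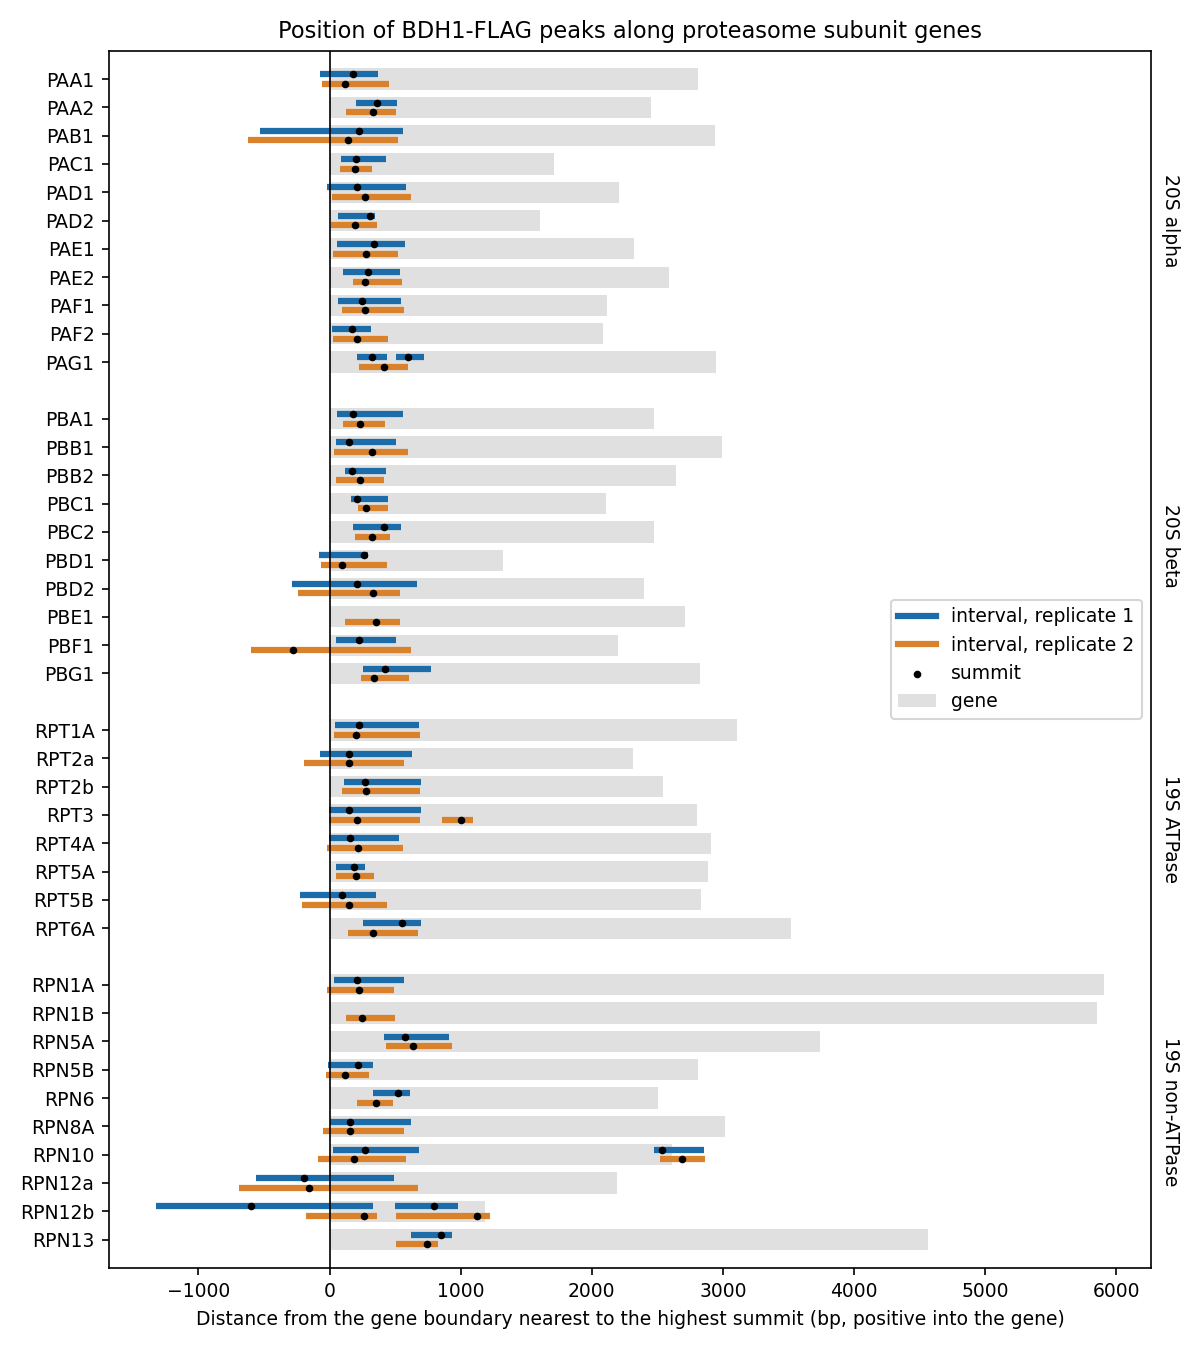
Intervals of both lists (blue, replicate 1, and orange, replicate 2) over the 39 subunit genes (grey bars), drawn by distance in bp from the gene boundary nearest to the highest summit, positive into the gene. Black dots are summits. A single interval near the boundary is seen at most genes, and RPN10 and RPN12b have summits in the far part of the gene.

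The peaks were narrow and mostly single. A single interval overlapped the gene in both lists for 33 of 37 subunit genes (89.2%), against 76.8% of all protein-coding genes with a peak in both lists. The exceptions were PAG1, RPT3, RPN10 and RPN12b. The interval had a median width of 475 bp in replicate 1 and 510 bp in replicate 2, and intervals covered a median of 18.3% and 17.8% of the gene. In all protein-coding genes with a peak in both lists the median width was 539 and 559 bp. The summits of the replicates lay a median of 62 bp apart, and within 100 bp in 28 of 37 genes (75.7%), against 62.6% of all those genes. The largest distances were 863 bp at RPN12b and 501 bp at PBF1. The interval also reached another annotated gene at 5 of 37 subunit genes in replicate 1 (13.5%) and 8 of 37 in replicate 2 (21.6%), against 20.5% and 22.3% of all protein-coding genes with a peak in both lists. When intervals that overlapped any other gene were left out, 30 of 39 subunit genes kept a peak in both lists (76.9%), against 35.2% of all protein-coding genes. Across the 37 genes the fold enrichment of the lists had a Spearman correlation of 0.625, close to 0.628 across all 12466 genes. These values are across genes, which share their libraries.

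Genes that work with the proteasome were looked up from a list of 35 symbols, of which 22 matched 24 genes of this pathway. The background to each count that follows is 45.4% of all protein-coding genes, and up to 62.4% in a length group. All 7 genes of shuttle receptors, which carry ubiquitin-marked proteins to the proteasome, had a peak in both lists. So did both genes of the ubiquitin-activating E1 enzymes, UBA1 and UBA2. Of 6 genes matched to CDC48 and UFD1, the segregase that pulls marked proteins out of complexes, 4 had a peak in both lists (66.7%). Of 7 genes of particle-associated proteins 5 did (71.4%). Both shares lay near that of the longer genes, and the groups were small. The symbol CDC48B matched both AT2G03670 and AT3G53230, and CDC48C matched both AT3G01610 and AT5G03340. Whether each of these genes encodes the segregase was not tested. The transcription factors NAC053 and NAC078, known as activators of proteasome genes under proteasome stress, both had one. For NAC053 the fold enrichment was 2.72 and 2.79, and for NAC078 2.12 and 2.81.

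The highest peaks of this list were at RAD23C, UBA1 and CDC48A. RAD23C, a shuttle receptor, had a fold enrichment of 4.03 and 3.38. Its interval was 3264 bp wide in replicate 1 and 2919 bp in replicate 2, its summit lay outside the gene, and it also overlapped LBD41. UBA1 had 3.19 and 2.85, and CDC48A had 2.83 and 3.25, both with the summit inside the gene. The genes without a peak in both lists were UCH1 and UCH2, which encode ubiquitin-removing enzymes, AtCDC48B (AT3G53230), and CDC48C (AT3G01610). The first 3 had no peak in either list, and CDC48C had a peak in replicate 2 alone, with a fold enrichment of 2.26. UBP7 was counted through an interval with its summit outside the gene in both lists. At UBP6 the higher interval of replicate 1 overlapped the gene by 25 bp and reached DOF1, with a fold enrichment of 2.99. A lower interval of 2.50 in replicate 1 overlapped the interval of 1.93 in replicate 2.

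The 21 genes of other proteins with matching names are given by family, and the families were too small to compare. A peak in both lists lay at 45.4% of all protein-coding genes. In the longest of the 10 length groups the share was 61.9%, and in the next 62.4%. Of 8 genes of poly(A)-binding proteins, PAB2, PAB4 and PAB8 had a peak in both lists, PAB6 had one in replicate 1 alone, and PAB1 (AT1G34140), PAB3, PAB5 and PAB7 had none in either list. Of 6 genes of pectin acetylesterases, 4 had a peak in both lists. Of 3 genes named for phytoalexin deficiency, GSH1 and PAD4 had a peak in both lists and PAD3 had none in either. The heavy metal ATPase genes PAA1 (AT4G33520) and PAA2 (AT5G21930), PHOT1 and HAP6 each had one in both. Of these 21 genes, 8 fell in the longest of the 10 length groups and 8 in the next, against 3 and 2 of the 39 subunit genes.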

How the data were processed

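ChIP-seq peak lists of 2 BDH1-FLAG samples were analysed. The authors deposited 1 narrowPeak list per sample, so replicates were not pooled. Bowtie2 2.5.2, SAMtools, bedtools 2.31.1, MACS2 2.2.9.1 and the build TAIR10 are named in the submitters' processing notes. The control library and read filters are not given in the sources used here. The deposited lists give each peak a fold enrichment (a linear ratio), a −log10 p-value, a −log10 q-value and a score. The deposited score and p-values were not used. Read depth is unknown, so no counting interval could be given. A control chosen differently, or another q threshold, would change which peaks are listed.

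Genes came from a RefSeq table of assembly TAIR10.1, with no strand and no sequence. No coordinates of the table are printed. Its match to the lists was checked: 41.2% and 42.3% of summits lay within 250 bp of a protein-coding gene end, against 21.9% to 23.5% after shifts of 2000 to 10000 bp. Overlaps were counted with Python 3.11.15, numpy 2.4.6 and pandas 2.3.3, and tested on simulated data. A subunit gene is a member whose table names contain "proteasome", "regulatory particle" or "RP non-ATPase". The name rule left out AT2G30520 and AT5G64330, whose matching names stand for root phototropism. Members and lists were chosen with earlier results of these data known, so no test was made. Every subunit gene with a matching name was accounted for. Those named with positions were the 5 highest and 3 lowest by mean percentile of fold enrichment, and those without a peak in both lists. Of the related list, the 3 highest and all without a peak in both lists were named. Further genes were named as members of their class, and the second peak of RPN10 was singled out after its values were seen. The related symbol NAS2 names nicotianamine synthase in the table and was left out, and 12 symbols matched no gene. The planned motif search needed promoter sequences and was not run.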

Additional observations from a re-analysis of the deposited data

How the results depend on the processing

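Overlaps of 100 bp, summits inside the gene, and either list alone left the counts for members, subunit genes, the 4 classes, pairs and related genes within 1.5 times of those reported. Subunit genes ran from 37 to 39 with either list alone, all members from 51 to 52, pairs from 11 to 12 and related genes from 20 to 21. The share of all protein-coding genes was 48.9% in replicate 1 and 49.8% in replicate 2. Stricter thresholds lowered them by construction, as fewer peaks remained. At a −log10 q of at least 5, 7 alpha, 4 beta, 8 ATPase and 7 other 19S subunit genes and 5 pairs kept a peak in both lists. Of all protein-coding genes, 30.2% did. At 10 or more, these were 9 of all 60 members, 6 subunit genes, 0 alpha, 1 beta, 3 ATPase and 2 other 19S subunit genes, 0 pairs and 3 related genes, against 9.12% of all protein-coding genes. Leaving out intervals that overlap another gene, an alternative chosen after seeing the data, left 6 pairs and 30 subunit genes, against 35.2% of all protein-coding genes. The median percentile of 62.7 was 67.2 when ranked by −log10 q and 59.1 with summits inside the gene alone, and the cause was not tested. It ran from 61.9 to 63.4 with either list alone. The median summit distance ran from 224 to 234 bp. No paired analysis was possible because no groups were compared. The motif alternative was not run. With 2 lists of unknown depth, a gene without a peak is not shown to lack BDH1-FLAG.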
